A study of Mus musculus with 25 samples.

Results

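The 54 genes described here build and run the DNA replication machinery: they load and fire replication origins, copy the strands, supply nucleotides, restore chromatin on new DNA and guard stalled forks. They were taken from a list of 55 gene symbols, each represented by the transcript cluster that carries that symbol alone in the probe table, and 54 of the 55 were measured among 22206 tested clusters; Mcm7 has no cluster under that symbol in the table and was not analysed here. No symbol had a second cluster. Their levels were followed in thymic invariant natural killer T (iNKT) cells, T cells with a near-fixed receptor for lipids on the CD1d molecule, on 25 Clariom S mouse arrays. Levels are log2 values made with the RMA method, so that a difference of 1 is a 2-fold difference, and levels of different genes are not compared with each other.

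All mice are labelled C57BL/6. WT mice gave 6 arrays of S1_S2 cells and 7 of S3 cells, mice lacking Mst1 (Mst1KO) gave 4 and 5, and mice lacking both Mst1 and Mst2 (dKOMst) gave 2 and 1. Mst1 and Mst2 are the core kinases of the Hippo pathway, encoded by Stk4 and Stk3. S1_S2 stands for stages 1 and 2, the NK1.1-negative cells without (S1) or with (S2) CD44, which the design text groups together, and S3 for stage 3, which carries both CD44 and NK1.1. Cells were enriched with a CD8 microbead kit and sorted as TCR beta positive, CD1d tetramer positive and CD24 negative, per the labels' protocols. The labels give no age, sex, Cre driver or deleted exons, and leave unsaid whether each array had its own animal. The p-values therefore reflect only array-to-array spread within a group, part of which can be technical.

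The arrays fall into 2 sets by the running numbers in their titles, each with its own WT arrays: set 1 (16 arrays) holds all Mst1KO arrays and set 2 (9 arrays) all dKOMst arrays, and the labels name no batch. The model therefore carried a term for the set. Stk4, the targeted gene, was lower in Mst1KO at S1_S2 (-0.92 ± 0.16, SE, limma adjusted p = 0.0059), and at S3 the difference of -0.35 ± 0.15 did not pass (adjusted p = 0.15). In dKOMst at S1_S2 its difference of -0.74 ± 0.20 did not pass either (limma adjusted p = 0.083), and Stk3 was not examined here. All 10 measured iNKT markers lay above the arrays' negative control median on each array. Of the 54 replication genes, 45 lay above it on all 25 arrays and 9 fell below it on at least 1. In these bulk samples, fewer cells of a type and less RNA per cell cannot be told apart.

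Replication starts when the origin recognition complex, Cdc6 and Cdt1 load the MCM helicase onto DNA, a step that geminin (Gmnn) blocks once S phase has begun. Cdc45 and the GINS complex then turn the loaded ring into an active helicase, polymerase alpha with its primase lays down primers, and polymerases epsilon and delta extend them, held to DNA by the PCNA clamp that the RFC complex loads. Many of these genes are switched on together by E2F transcription factors at the entry into S phase. iNKT cells divide actively early in their thymic development and little once they carry NK1.1.

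The E2F sequence was looked for in the promoters, because it is the feature that this gene set is best known to share. RefSeq start site windows on GRCm38.p6, 250 bases before to 50 after the start, were found for 43 members (50 windows), and none in the table used here for Gmnn, Mcm4, Gins1, Gins2, Gins4, Prim2, Pole, Rfc2, Exo1, Tipin and Ccne2. The 8-base E2F words TTTCCCGC, TTTCGCGC, TTTGCCGC and TTTGGCGC, read on both strands with overlaps allowed, occurred in 17 of the 50 windows (34.0%), against 2.26% of all 32851 windows of the table. The CCAAT box (CCAAT) was in 60.0% against 37.4%, and the cell cycle homology word TTTGAA, found in genes of mitosis, in 6 of the 50 windows against 17.9%. Base composition differed too, with a median GC content of 59.2% in the member windows and 52.7% in all. These are descriptions of letters, not of binding.

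Stretches of promoter show where the words lie. The 120 bases before the start are printed for Dtl, the member with the largest stage difference, on the minus strand at chr1:191575545-191575664, and for Mcm6, the member with the most matches, on the minus strand at chr1:128359706-128359825. Sequences are printed 5′ to 3′ in the direction of the gene, and capitals mark the E2F words, which appear as their reverse complement where they match the opposite strand.
Dtl: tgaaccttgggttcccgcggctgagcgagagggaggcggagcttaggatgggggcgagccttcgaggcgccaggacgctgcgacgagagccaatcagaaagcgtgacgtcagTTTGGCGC
Mcm6: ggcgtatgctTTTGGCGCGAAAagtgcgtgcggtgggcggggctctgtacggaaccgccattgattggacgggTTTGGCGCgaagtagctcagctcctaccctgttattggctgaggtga

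In Dtl the word ends at the base before the start, and in Mcm6 3 matches occur, of which 2 overlap. A match was held by 7 members that were higher in Mst1KO S3 cells (below), with Dtl among them, whereas Mcm6 was not called there. The other 6 are shown by 30 bases around the match: Cdc6 (plus strand, chr11:98908002-98908031), Uhrf1 (plus strand, chr17:56304117-56304146), Pola1 (minus strand, chrX:93632275-93632304), Pole2 (minus strand, chr12:69228162-69228191), Pold1 (minus strand, chr7:44548766-44548795) and Mcm3 (minus strand, chr1:20820265-20820294).
Cdc6: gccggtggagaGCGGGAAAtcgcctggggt
Uhrf1: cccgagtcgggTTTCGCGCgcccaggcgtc
Pola1: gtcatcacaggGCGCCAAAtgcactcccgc
Pole2: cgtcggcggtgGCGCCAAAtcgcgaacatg
Pold1: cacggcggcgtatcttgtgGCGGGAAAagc
Mcm3: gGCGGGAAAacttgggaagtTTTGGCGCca

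Among members with a window, a match was present in 7 of the 16 that were higher in Mst1KO S3 cells and in 10 of the 27 that were not.

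Averaged over the 54 genes, an array of WT S1_S2 cells read 9.31 ± 0.18 (SD, n = 6) and one of WT S3 cells 8.45 ± 0.17 (n = 7). Mst1KO arrays read 9.19 ± 0.12 (n = 4) at S1_S2 and 8.76 ± 0.05 (n = 5) at S3, and dKOMst arrays 9.35 and 9.50 at S1_S2 and 8.81 at S3. At S1_S2 both mutant genotypes overlapped the WT arrays (9.03 to 9.55), whereas at S3 the Mst1KO arrays (8.69 to 8.82) lay above all 7 WT arrays (8.24 to 8.64). The 2 sets differed among the WT arrays themselves: at S1_S2 they read 9.16 ± 0.11 (n = 3) in set 1 and 9.46 ± 0.08 (n = 3) in set 2, and at S3 8.32 ± 0.09 (n = 4) and 8.63 ± 0.02 (n = 3). A comparison of Mst1KO with WT is therefore nearest to like with like inside set 1.

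**Figure D1:**
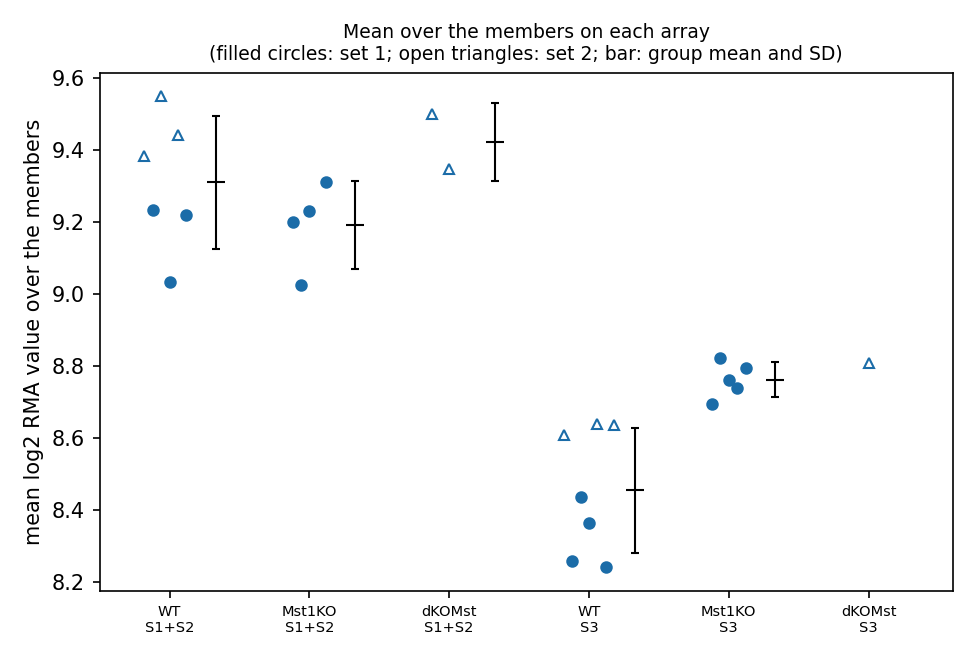
Mean log2 RMA value over the 54 replication genes (vertical axis) on each array, by genotype and stage (horizontal axis). Filled circles are arrays of title number set 1, open triangles those of set 2, and bars give the group mean and SD; the S3 arrays of all genotypes lie below the S1_S2 arrays, and the Mst1KO S3 arrays, at 8.69 to 8.82, lie above the WT S3 arrays, at 8.24 to 8.64.

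**Figure D2:**
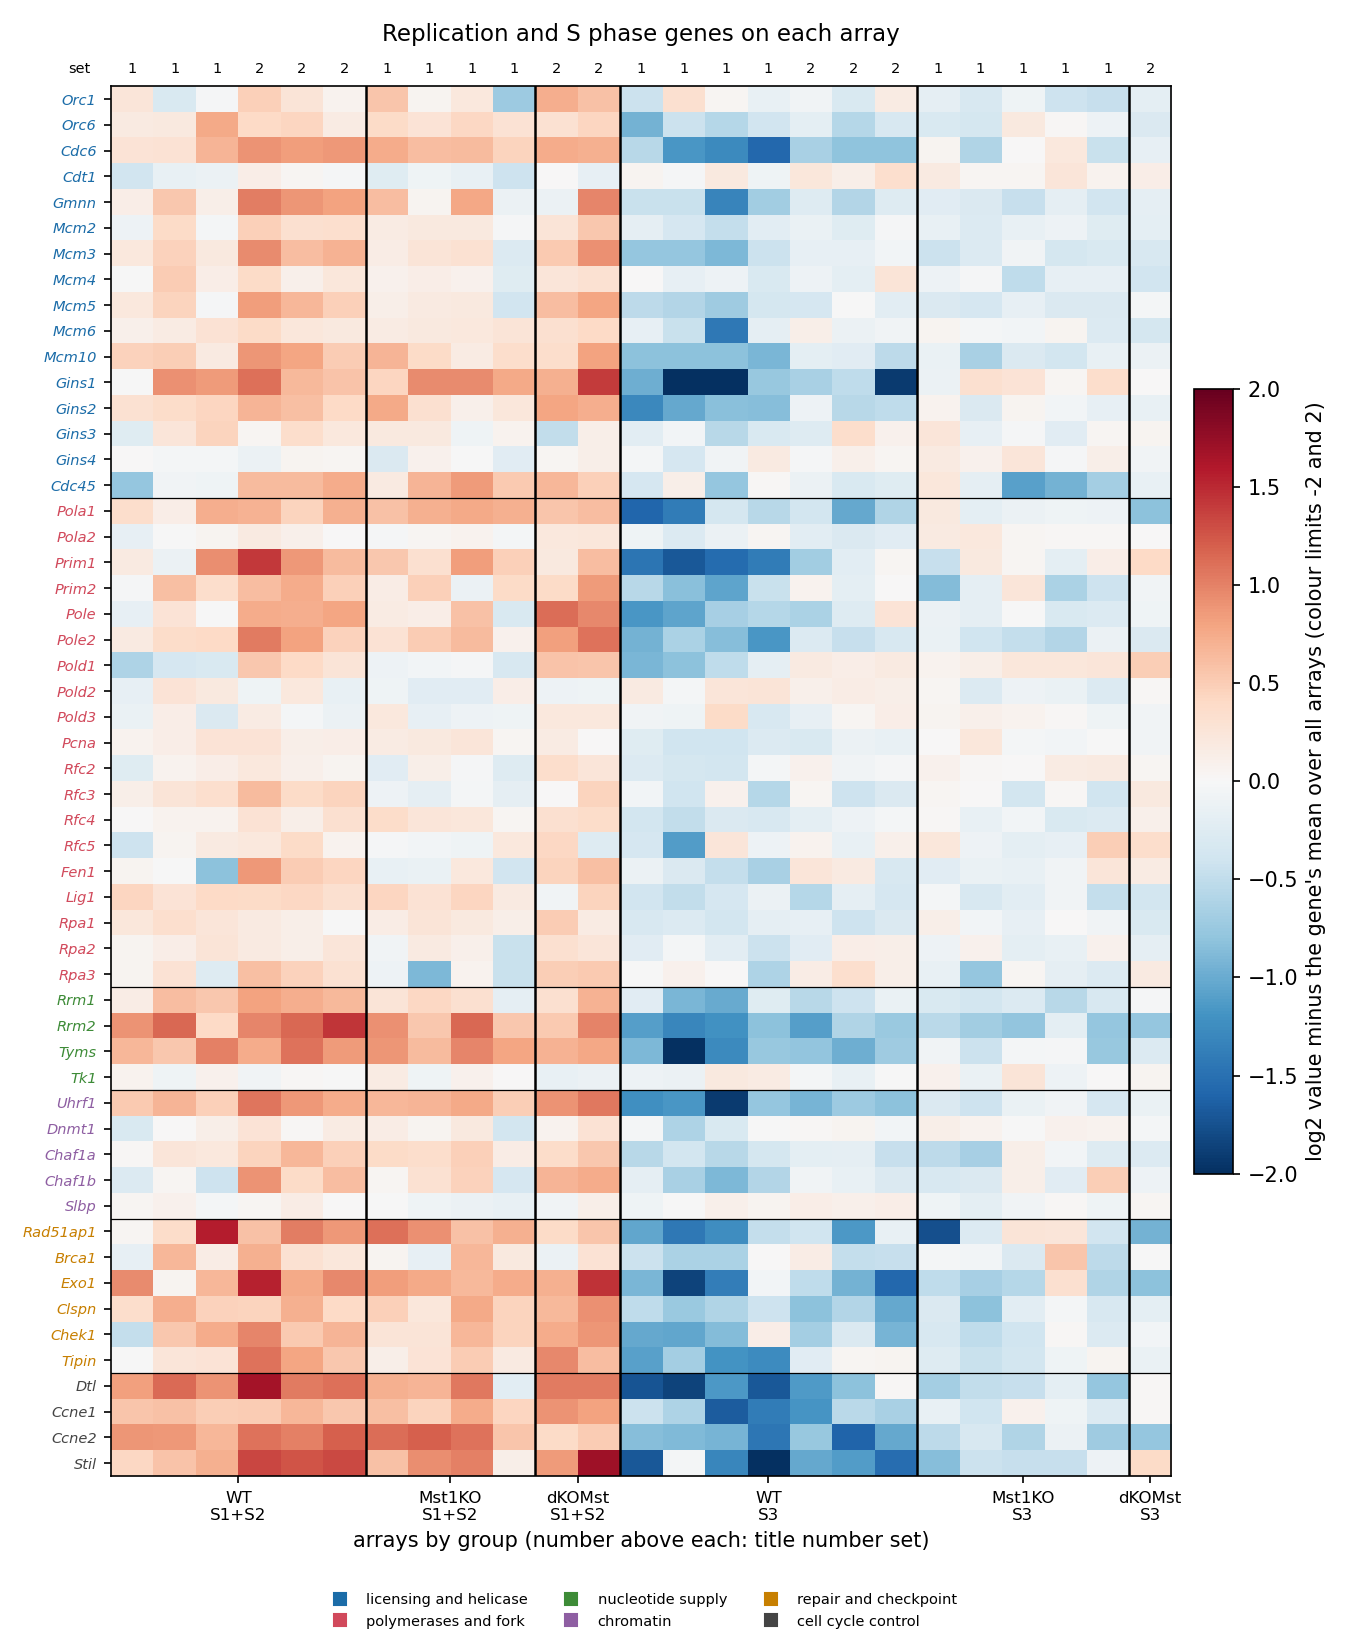
Log2 RMA value of each of the 54 genes (rows, coloured by function) on each of the 25 arrays (columns, by group, with the title number set above), after subtraction of the gene's mean over all arrays. Red is above and blue below that mean, with colours limited at -2 and 2; most rows turn from red to blue between S1_S2 and S3, while rows such as Tk1 and Slbp stay pale.

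Between the WT stages the replication program was lower in S3 cells. Of the 54 genes, 39 were lower and 1 higher at S3 (limma, adjusted p under 0.05 over all clusters), where 8.75% of all 22206 clusters were lower and 8.18% higher, and the median difference was -0.71 on the log2 scale against 0.01 over all clusters. In 33 genes all S3 arrays lay below all S1_S2 arrays in both sets, and in 0 genes above, where 4.69% and 4.49% of all clusters did so. Leaving out any 1 array kept 36 of the 40 calls, and those lost were Cdt1, Mcm4, Pola2 and Rpa2. With a minimum change of 1.5-fold in the test, 20 of the calls remained.

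Licensing and helicase genes were lower for 11 of 16, with 1 higher. Gins1, a GINS subunit, ranged from 7.32 to 8.42 with a median of 8.07 over the 6 WT S1_S2 arrays, and from 4.10 to 6.81 with a median of 6.35 over the 7 WT S3 arrays. The groups did not overlap, but only 3 of the 7 S3 arrays read above the negative controls, so the fitted fall of 2.09 ± 0.30 on the log2 scale (limma adjusted p = 1.7e-05) is less exact than its error. Cdc6 fell to 0.33 of its S1_S2 level (-1.58 ± 0.14), and Gins2 and Mcm10, which joins the helicase at firing, to 0.44 and 0.45. The MCM ring subunits fell less, from -0.30 ± 0.10 for Mcm4 to -0.95 ± 0.10 for Mcm3, with Mcm2, Mcm5 and Mcm6 between. Orc6 fell by 0.83 ± 0.11 and the licensing inhibitor Gmnn by 1.12 ± 0.17.

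Cdt1, the licensing factor that geminin inhibits, was the 1 gene higher at S3. It ranged from 9.80 to 10.30 (median 10.10) over the WT S1_S2 arrays and from 10.09 to 10.51 (median 10.29) over the WT S3 arrays, so the groups overlapped, with a difference of 0.22 ± 0.07 (limma adjusted p = 0.040). That call was lost without the set term and within either set alone. In Mst1KO cells Cdt1 was higher at S3 as well, at 10.21 to 10.42 on the 5 arrays against 9.93, 10.09, 10.03 and 9.75 at S1_S2 (0.34 ± 0.09, adjusted p = 0.012). The licensing members called in no comparison were Orc1, the largest subunit of the origin recognition complex (-0.17 ± 0.16 between WT stages), Gins3 (-0.29 ± 0.13) and Gins4 (0.00 ± 0.08), so the 4 GINS genes ranged from 1.00 (Gins4) to 0.23 (Gins1) of their S1_S2 level.

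Polymerase and fork genes were lower for 12 of 19. The subunits of polymerase alpha and primase differed in size: Prim1, the catalytic primase, and Pola1, the catalytic polymerase subunit, fell by 1.58 ± 0.17 and 1.33 ± 0.16, Prim2 by 0.85 ± 0.16 and the regulatory Pola2 by 0.19 ± 0.07. Both polymerase epsilon genes fell, Pole by 0.93 ± 0.14 and Pole2 by 1.17 ± 0.11. None of the 3 polymerase delta genes passed: Pold1, Pold2 and Pold3 differed by -0.21 ± 0.09, 0.09 ± 0.09 and 0.04 ± 0.10. The clamp Pcna fell by 0.43 ± 0.07 and the nick sealing ligase Lig1 by 0.72 ± 0.09. Of the clamp loader, Rfc3 and Rfc4 fell by 0.58 ± 0.11 and 0.39 ± 0.07, while Rfc2 (-0.19) and Rfc5 (-0.24) did not pass, and of the single-strand binding complex Rpa1 and Rpa2 fell and Rpa3 (-0.21 ± 0.15) did not pass. Fen1, the flap nuclease of lagging strands, differed by -0.33 ± 0.14 without passing.

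Nucleotide supply genes were lower for 3 of 4. Rrm2, the small subunit of ribonucleotide reductase that accumulates in S phase, ranged from 8.27 to 9.30 (median 8.93) over WT S1_S2 arrays and from 6.56 to 7.26 (median 6.77) over WT S3 arrays. The groups did not overlap, and Rrm2 fell by 1.96 ± 0.14 (limma adjusted p = 2.1e-10). Thymidylate synthase, Tyms, fell by 1.93 ± 0.21 and the large reductase subunit Rrm1 by 1.06 ± 0.13. Thymidine kinase 1, Tk1, differed by -0.02 ± 0.07 and was called in no comparison.

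Of 5 chromatin genes 3 were lower. Uhrf1, which reads hemimethylated DNA and brings in the maintenance methylase, fell by 1.78 ± 0.12 (limma adjusted p = 9.6e-11), while the methylase itself, Dnmt1, differed by -0.17 ± 0.10 without passing. The large and middle subunits of the CAF-1 histone chaperone, Chaf1a and Chaf1b, fell by 0.71 ± 0.10 and 0.57 ± 0.15. Slbp, which binds the stem-loop of replication-dependent histone messages, read 10.69 ± 0.06 (SD, n = 6) and 10.71 ± 0.08 (n = 7) and was called in no comparison.

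All 6 repair and checkpoint genes and all 4 cell cycle genes were lower at S3. Rad51ap1, a factor of homologous recombination, and the nuclease Exo1 were not above the negative controls on any S3 array of WT or Mst1KO cells, nor was the checkpoint mediator Clspn on any WT S3 array. For these the WT difference is given as a bound, at least 0.21 for Rad51ap1, 0.55 for Exo1 and 0.77 for Clspn on the log2 scale. It is taken against the higher of the control median and the measured value on each S3 array. Rad51ap1 also read below the controls on WT S1_S2 replicates 1, 2 and 4, and Exo1 on replicate 2. For these genes the bound is therefore not a sure minimum. Rad51ap1 read 5.79 to 7.33 (median 6.48) over WT S1_S2 arrays and 4.33 to 5.61 (median 4.72) over WT S3 arrays. Chek1, the checkpoint kinase, fell by 1.15 ± 0.19, the fork protection factor Tipin by 1.05 ± 0.12 and Brca1 by 0.66 ± 0.18, although Brca1 was above the controls on only 2 of the 7 S3 arrays.

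Dtl, the substrate receptor of the ligase that destroys Cdt1 on chromatin in S phase, ranged from 8.64 to 9.48 (median 8.89) over WT S1_S2 arrays and from 5.97 to 7.84 (median 6.67) over WT S3 arrays. It had the largest difference of the 54, -2.25 ± 0.20 (limma adjusted p = 7.1e-09), with 4 of 7 S3 arrays above the controls. Stil, a centriole duplication factor, ranged from 7.94 to 8.87 (median 8.51) and from 5.34 to 7.49 (median 6.22), a difference of -2.18 ± 0.24, with 3 of 7 S3 arrays above the controls. The E-type cyclins, which drive entry into S phase, fell by 1.47 ± 0.15 (Ccne1) and 2.01 ± 0.14 (Ccne2). Neither Dtl, Stil nor the cyclins overlapped between the WT stages.

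Other genes of the same pathways, 75 measured in 5 lists, were lower for 33 and higher for 6 between the WT stages. Those with the largest differences within their lists included Hells (-1.78 ± 0.18), a chromatin remodeller of newly made DNA, Asf1b (-1.56 ± 0.11), a histone chaperone, Ticrr (-1.52 ± 0.20), which helps origins fire, Timeless (-1.09 ± 0.13), the partner of Tipin, and Brca2 (-1.08 ± 0.15). The higher genes, 6 of 75, were near the share of all clusters that were higher, 8.18%, while 8.75% of all clusters were lower. The 6, named after their values were seen, were Rrm2b (0.58 ± 0.15), the small reductase subunit used outside S phase, Donson (0.53 ± 0.10), the mitochondrial thymidine kinase Tk2 (0.44 ± 0.10), Impdh1 (0.39 ± 0.13), Rad9a (0.36 ± 0.09) and Rnaseh2c (0.36 ± 0.06). Rrm2b thus moved opposite to Rrm2. All 19 measured mitotic genes were lower as well.

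Markers of other cells also differed between the WT stages. Of 5 NK cell markers, a program that NK1.1-positive iNKT cells share, 4 were higher at S3, and their summed linear level was 298 to 429 on S1_S2 arrays and 5286 to 6429 on S3 arrays. Of 9 macrophage and dendritic cell markers 3 were higher (Lyz2 1.00 ± 0.11, C1qa 1.48 ± 0.18 and C1qb 0.64 ± 0.13) and Xcr1 was lower, with a summed level of 624 to 763 and 903 to 1124. Of 7 double-positive thymocyte markers Dntt was higher (0.91 ± 0.28) and Cd4 lower (-0.44 ± 0.09), with a summed level of 2203 to 3016 and 1893 to 2497. At each WT stage 5 of the 7 were above the controls on every array, while Rag2 was above them on 0 of the 13 arrays. Of 2 gamma-delta markers Cd163l1 was lower, and 0 of 6 B cell and 0 of 2 erythroid markers passed in limma, 1 of each with an unadjusted p under 0.05. Their part in the stage differences was not tested.

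In Mst1KO cells the stage difference ran the same way, with 25 genes lower and 1 higher at S3 (limma, where 4.62% and 5.58% of all clusters were lower and higher). The median difference was -0.39. Ccne2 read 9.58, 9.66, 9.55 and 9.02 at S1_S2 and 7.94, 8.14, 7.87, 8.35 and 7.76 at S3, a fall of 1.44 ± 0.17 (adjusted p = 1.8e-06) with no overlap. Rrm2 read 8.78, 8.41, 9.01 and 8.41 and then 7.33, 7.17, 7.08, 7.67 and 7.09, a fall of 1.38 ± 0.17 (adjusted p = 3.2e-06), again with no overlap. Rad51ap1 read 6.85, 6.66, 6.33 and 6.46 and then 4.00, 5.48, 6.01, 5.99 and 5.38, below the controls on each S3 array. Only a bound of 0.08 can be given. The S1_S2 readings of 6.33 and 6.46 also lay below the control medians of their arrays (6.53 and 6.55), so this bound is not a sure minimum.

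By function, 7 of 16 licensing genes, 5 of 19 polymerase and fork genes, 3 of 4 nucleotide genes, 2 of 5 chromatin genes, 4 of 6 repair genes and all 4 cell cycle genes were lower at S3 without Mst1. Cdc45, the helicase activator, was lower in this comparison (-1.09 ± 0.25, limma adjusted p = 0.0051) but not between the WT stages (-0.38 ± 0.21, adjusted p = 0.26). Its difference between these 2 stage differences, -0.71 ± 0.33, did not pass (limma adjusted p = 0.50). The 2 sets differed for Cdc45 in WT. In set 2 it read 8.11, 8.12 and 8.22 at S1_S2 and 7.365, 7.17 and 7.24 at S3, a difference of -0.89. In set 1 the stages overlapped, at 6.71, 7.41 and 7.40 and then 7.15, 7.60, 6.71 and 7.50. Without any 1 array 16 of the 26 calls held, and those lost without 1 or more arrays were Cdt1, Gins2, Mcm2, Mcm3, Orc6, Prim2, Rad51ap1, Rrm1, Stil and Tipin. Of the other pathway genes 12 of 75 were lower and 5 higher, where 4.62% and 5.58% of all clusters were. The 5 higher genes, again a share near that of all clusters, were Rrm2b, Tk2, Donson, Rad9a and Rnaseh2c, which were also higher between the WT stages.

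**Figure D3:**
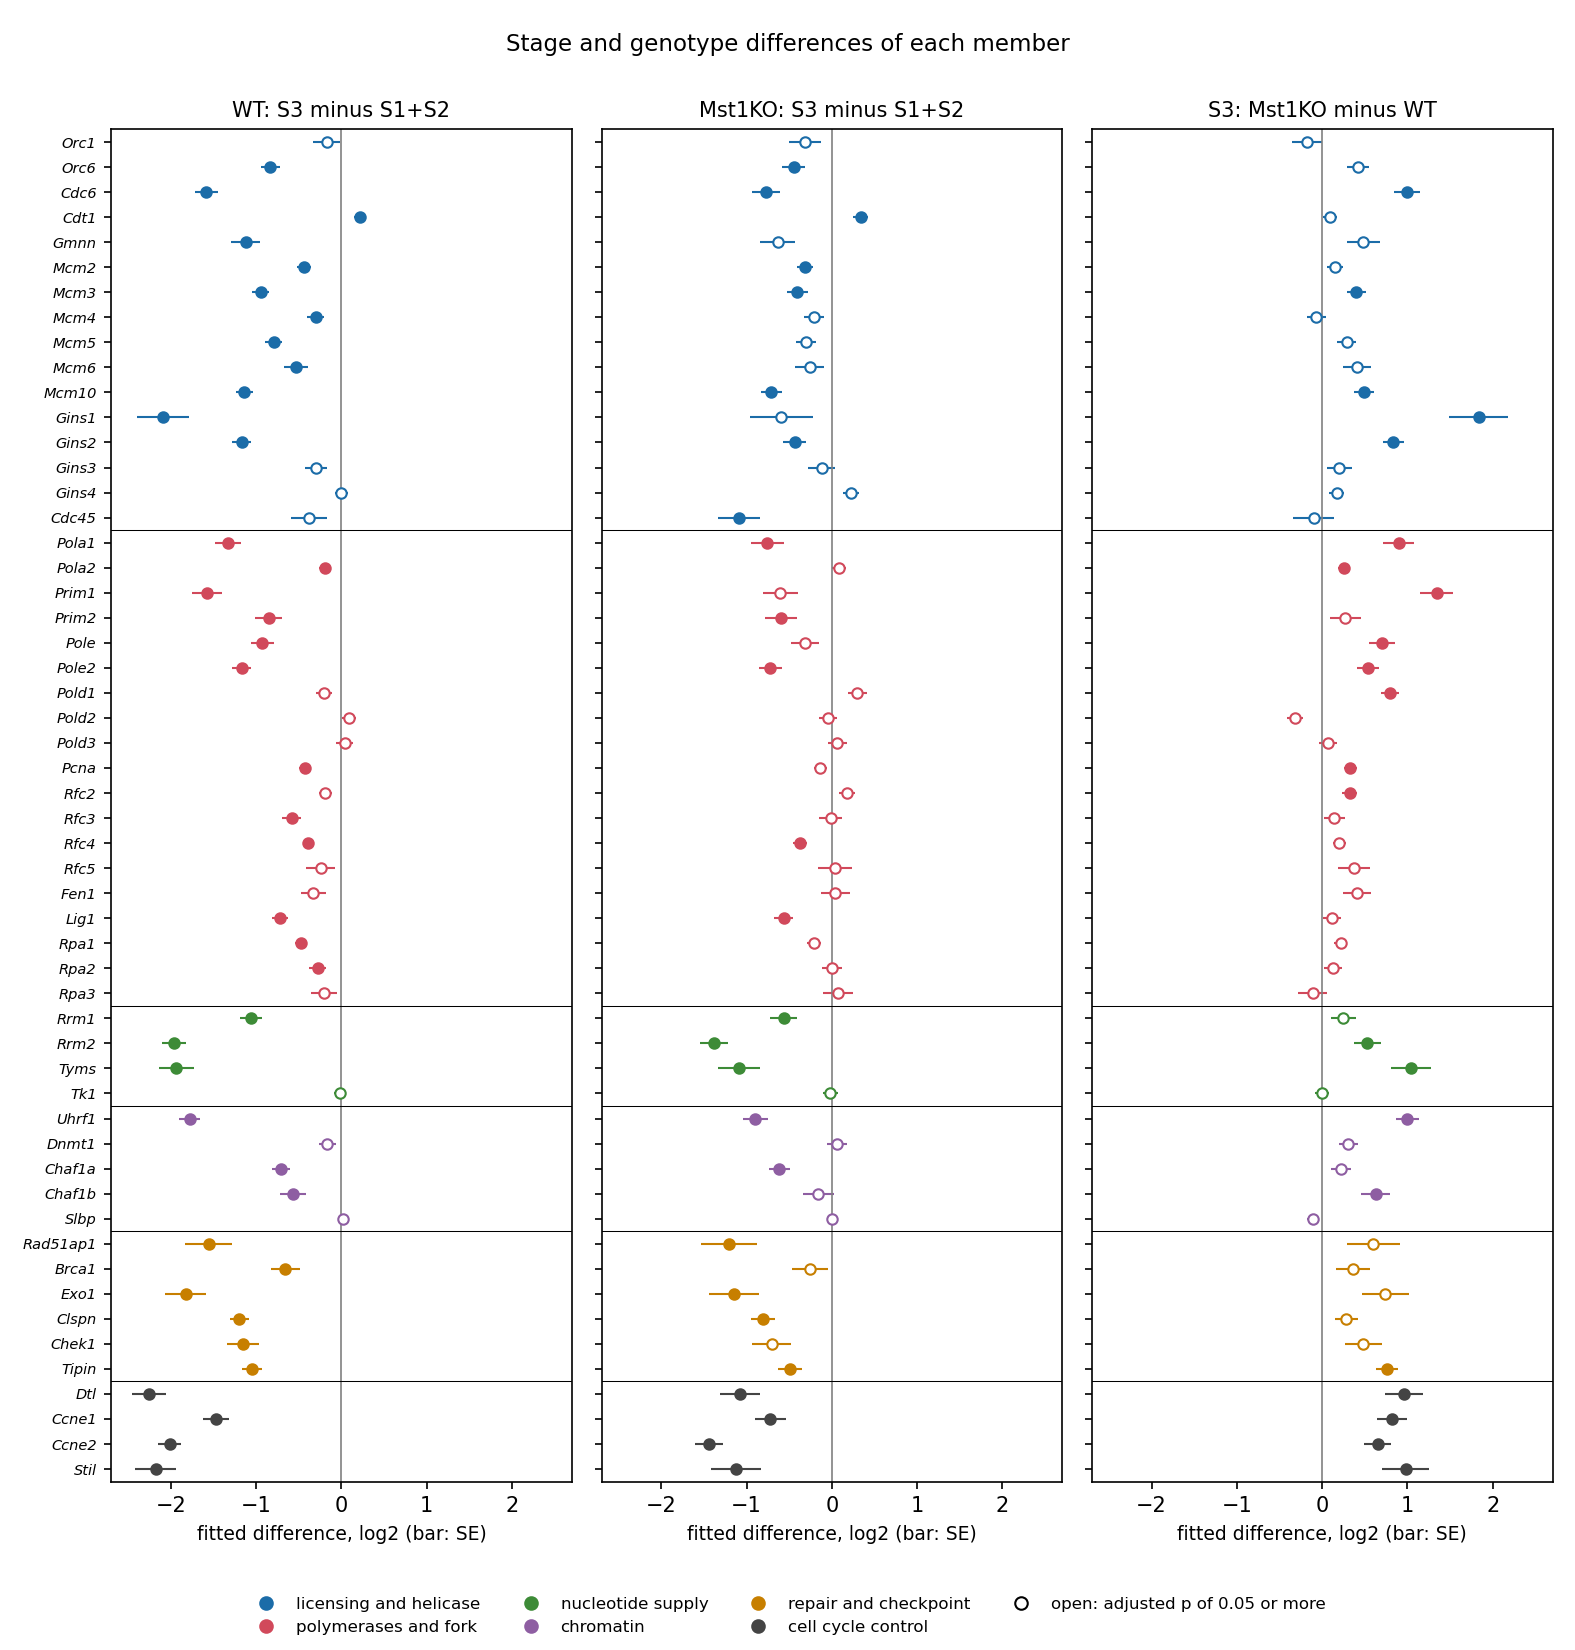
Fitted log2 differences (points, with the SE as bars) of the 54 genes for S3 minus S1_S2 in WT (left), the same in Mst1KO (middle) and Mst1KO minus WT at S3 (right); rows are genes coloured by function and filled points passed an adjusted p of 0.05 over all clusters. Filled points lie almost all to the left in the stage panels, 39 and 25 of them, and to the right in the genotype panel, 22 of them.

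At S3 the replication genes were higher without Mst1. Of the 54 genes 22 were higher in Mst1KO and 0 lower (limma, adjusted p under 0.05), where 3.73% of all clusters were higher and 2.64% lower, and at an unadjusted p under 0.05 the counts were 33 and 1, where 23.6% of all clusters passed in either direction. The median difference was 0.37, with 47 positive, against -0.05 over all clusters. Inside set 1, all 5 Mst1KO arrays lay above all 4 WT arrays for 20 genes and below for 0, where 3.85% and 4.64% of all clusters did so.

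The count rests on how the 2 sets are handled and on which arrays enter the fit. Within set 1 alone 15 genes passed, with a median of 0.35, whereas without the set term 10 did and with the set as a random block 12. With only the arrays of these 2 groups, and the set term kept, 10 passed. With all 7 WT arrays of both sets side by side the groups stayed apart for 7 genes, Gins1, Pola1, Pcna, Rpa1, Uhrf1, Ccne1 and Ccne2, all higher in Mst1KO, where 1.46% of all clusters were higher without overlap and 1.07% lower. In Rpa1 the nearest arrays of the 2 groups both read 10.53, and in Uhrf1 they read 9.58 and 9.27. Signal from Y-linked genes was missing on 4 arrays, all of them Mst1KO (replicates 3 and 4 at either stage), and on the other 21 arrays alone 11 genes passed. With a minimum change of 1.5-fold in the limma test 0 passed. Shares of all clusters under these other fits are not given here, so whether calls fell across the whole array too was not assessed.

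Among licensing and helicase genes 5 of 16 were higher. Gins1 had the largest difference: it read 6.35, 5.21, 4.10 and 6.57 on the WT S3 arrays of set 1, 6.68, 6.81 and 5.42 on those of set 2, and 7.21, 7.64, 7.60, 7.37 and 7.69 on the Mst1KO arrays. The Mst1KO arrays lay above every WT array, and the fitted difference was 1.83 ± 0.35 (limma adjusted p = 0.0030), or 3.56-fold, with 4 of the 7 WT values below the controls. Cdc6 was 0.99 ± 0.15 higher, Gins2 0.83 ± 0.13, Mcm10 0.49 ± 0.12 and Mcm3 0.40 ± 0.11. No other MCM ring gene passed (from -0.07 for Mcm4 to 0.41 for Mcm6), nor did Gins3 (0.20) or Gins4 (0.17). Orc1 (-0.18 ± 0.18), Mcm4 and Cdc45 (-0.10 ± 0.24) were the licensing genes with a negative difference.

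Polymerase and fork genes were higher for 8 of 19. Prim1 read 7.10, 6.85, 7.01 and 7.16 on the WT S3 arrays of set 1, 7.86, 8.35 and 8.60 on those of set 2, and 8.09, 8.74, 8.59, 8.36 and 8.68 on the Mst1KO arrays. Against set 1 the Mst1KO arrays were higher throughout, but they overlapped the WT arrays of set 2, and the fitted difference of 1.34 ± 0.20 (limma adjusted p = 0.00026, or 2.53-fold) was lost without the set term. Pold1 behaved alike: WT S3 arrays read 9.84 to 10.58 in set 1 and 10.90 to 10.93 in set 2, against 10.83 to 10.99 in Mst1KO, with a difference of 0.79 ± 0.11. Pola1 (0.89 ± 0.18), Pole (0.70 ± 0.16), Pole2 (0.54 ± 0.12), Pcna (0.33 ± 0.07), Rfc2 (0.32 ± 0.09) and Pola2 (0.26 ± 0.08) were higher too. Pold2 was lower by a difference that missed the threshold (-0.32 ± 0.10, adjusted p = 0.051), so the 2 polymerase delta genes Pold1 and Pold2 had opposite signs, and Rpa3 (-0.11 ± 0.17) was the other negative value of this class. Pold2, Pold3, Rfc5, Fen1 and Rpa3 were called in no comparison.

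Of the nucleotide genes, Tyms and Rrm2 were higher. Tyms read 8.53, 6.79, 8.14 and 8.67 on the WT S3 arrays of set 1, 8.64, 8.45 and 8.71 on those of set 2, and 9.35, 8.99, 9.39, 9.40 and 8.66 on the Mst1KO arrays. Only the lowest Mst1KO array reached into the WT range, and the difference was 1.04 ± 0.24 (limma adjusted p = 0.012). Rrm2 was 0.53 ± 0.16 higher (adjusted p = 0.046), a call lost within set 1, and Rrm1 (0.24 ± 0.15) and Tk1 (0.00 ± 0.08) did not pass.

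Of the chromatin genes, Uhrf1 and Chaf1b were higher. Uhrf1 read 8.77, 8.83, 8.08 and 9.22 on the WT S3 arrays of set 1, 9.06, 9.27 and 9.17 on those of set 2, and 9.70, 9.58, 9.87, 9.93 and 9.66 on the Mst1KO arrays. Every Mst1KO array was above every WT array, and the difference was 1.00 ± 0.14 (limma adjusted p = 0.00013) and 1.02 ± 0.16 within set 1. Chaf1b was 0.62 ± 0.17 higher, a call lost within set 1, and Dnmt1 (0.30 ± 0.11) and Slbp (-0.11 ± 0.06) did not pass.

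Of the 6 repair and checkpoint genes Tipin alone passed, although all 6 differences were positive. It read 7.61, 8.004, 7.49 and 7.43 on the WT S3 arrays of set 1, 8.47, 8.73 and 8.74 on those of set 2, and 8.44, 8.24, 8.32, 8.61 and 8.74 on the Mst1KO arrays. The Mst1KO values lay above all of set 1 and overlapped set 2, where 3 of the 5 were below every WT array, and the difference of 0.76 ± 0.13 (limma adjusted p = 0.0016) was 0.83 ± 0.13 within set 1 and lost without the set term. For Rad51ap1, Exo1 and Clspn, near or below the controls in both genotypes at S3, no fold can be given.

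All 4 cell cycle genes were higher. Stil read 5.83, 7.49, 6.22 and 5.34 on the WT S3 arrays of set 1, 6.498, 6.42 and 6.00 on those of set 2, and 6.68, 7.09, 7.07, 7.07 and 7.43 on the Mst1KO arrays. A single WT array, replicate 2 at 7.49, lay above all Mst1KO arrays and the other 6 lay below them, and the difference was 0.98 ± 0.28 (limma adjusted p = 0.036). Dtl was 0.96 ± 0.22 higher, Ccne1 0.82 ± 0.17 and Ccne2 0.65 ± 0.16. For Stil and Dtl some WT S3 arrays read below the controls, so both differences are less exact than their errors. Within set 1 alone the calls of Stil and Ccne2 were lost, and without the set term or with the set as a random block those of Stil and Dtl were. The calls of Mcm3, Pola2, Rfc2, Rrm2, Chaf1b and Stil were each lost when some single arrays were left out, and the other 16 held without any 1 array.

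**Figure D4:**
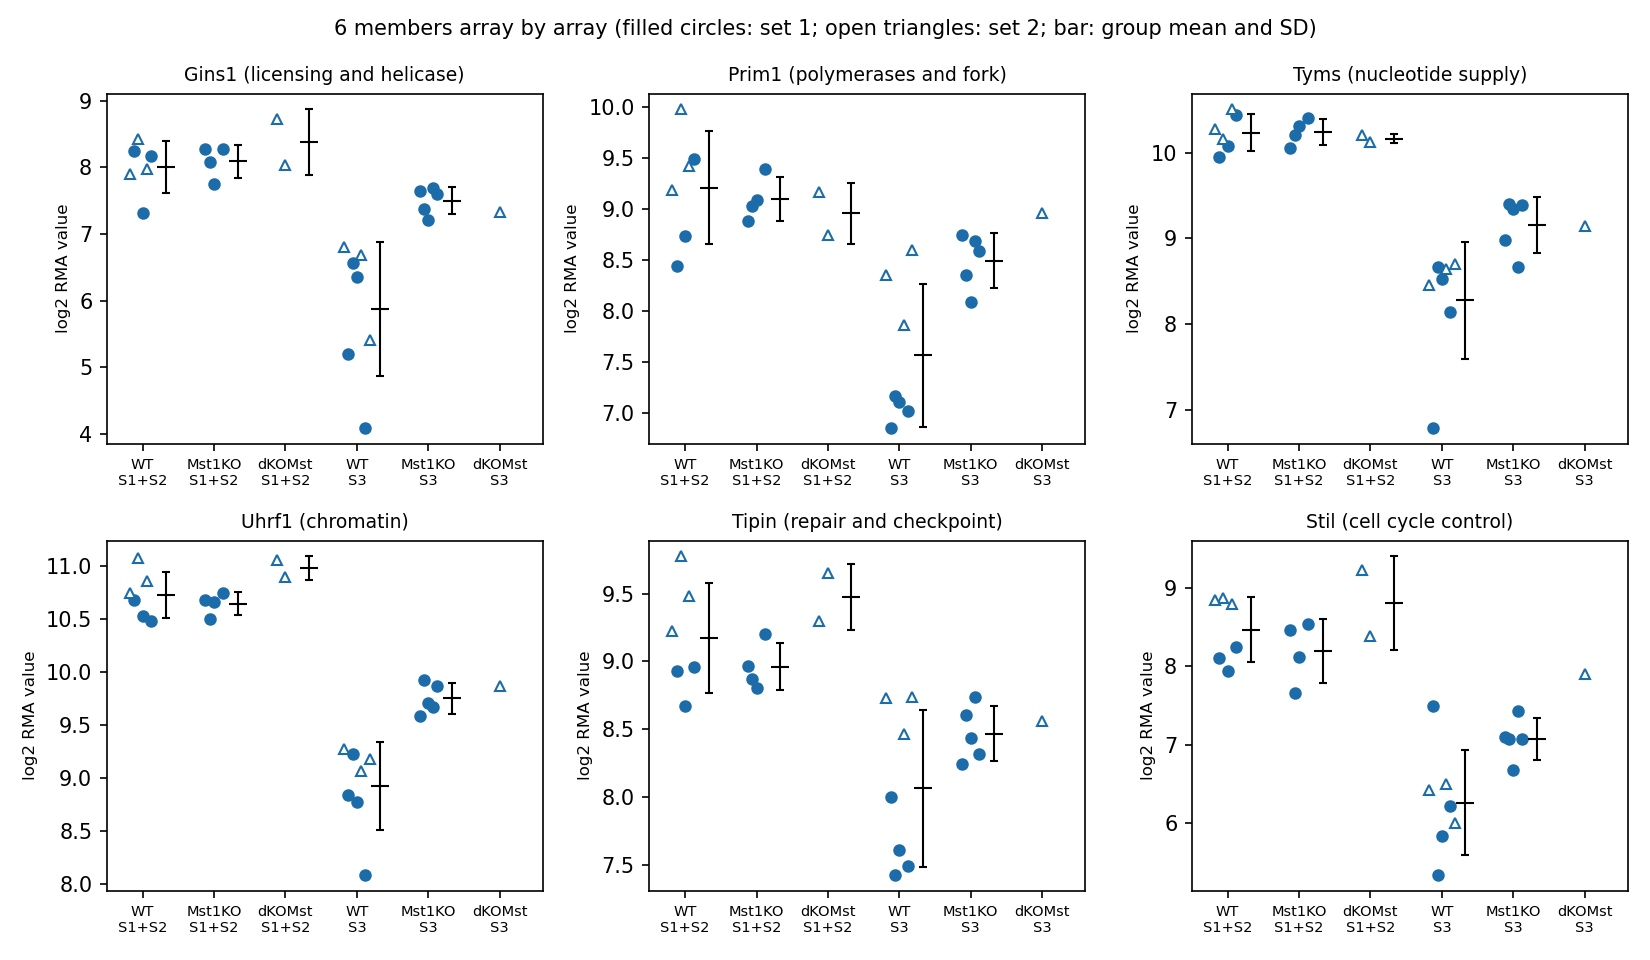
Log2 RMA values (vertical axes) on each array, by group (horizontal axes), for the gene with the largest Mst1KO minus WT difference at S3 in each of the 6 functional classes. Filled circles are set 1, open triangles set 2, and bars give the group mean and SD; for Gins1 and Uhrf1 the Mst1KO S3 arrays lie above all WT S3 arrays, whereas for Prim1 and Tipin they lie above set 1 only.

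In Mst1KO S3 cells, where 3.73% of all clusters were higher and 2.64% lower, 12 of the 75 other pathway genes were higher and 0 lower. They were led by Hells (0.82 ± 0.21) and Nasp (0.76 ± 0.21), a histone chaperone, and included Umps (0.72 ± 0.16) of pyrimidine synthesis, Wdhd1 (0.71 ± 0.14), which ties polymerase alpha to the helicase, Timeless (0.70 ± 0.15) and the translesion polymerase Polh (0.66 ± 0.16). Of 21 measured E2F, RB and DREAM regulators 3 were higher, E2f2 (1.096 ± 0.17), E2f8 (1.75 ± 0.24) and Rb1 (0.52 ± 0.11), and 12 of 19 mitotic genes were higher. The mean over mitotic genes on an array was 6.98 to 7.71 in WT S3 and 7.69 to 8.04 in Mst1KO S3.

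Markers of other cells were read on the same arrays. Of 7 measured markers of CD4 CD8 double-positive thymocytes, a precursor population, Cd8b1 was higher (0.73 ± 0.18, limma adjusted p = 0.018) and Cd4 lower (-0.47 ± 0.11, adjusted p = 0.013) in Mst1KO S3 cells, and Dntt differed by 0.87 ± 0.32 (adjusted p = 0.099). The list's summed linear level was 1893 to 2497 on WT S3 arrays and 2017 to 2381 on Mst1KO S3 arrays, and its mean log2 level 7.29 to 7.82 and 7.72 to 7.996. On every WT S3 array 5 of the 7 markers were above the controls, and 6 on every Mst1KO S3 array. Rag2, a defining gene, was above the controls on 0 of 7 and 1 of 5 arrays. Of 5 NK cell markers Eomes and Tyrobp were higher and Ncr1 lower, and the summed level of the 5 was 5286 to 6429 and 6767 to 7321. Of 2 gamma-delta T cell markers Cd163l1 was higher (0.82 ± 0.12) and Sox13 differed by -0.33 ± 0.13 (adjusted p = 0.11), with the list's summed level at 575 to 733 and 705 to 939. No B cell (6), macrophage and dendritic cell (9) or erythroid (2) marker passed. The part of these markers in the replication gene differences was not tested.

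At S1_S2, loss of Mst1 gave no replication gene past the threshold. Of the 54 genes 0 passed in limma (where 0.329% and 0.194% of all clusters were higher and lower), 5 had an unadjusted p under 0.05, as did 8.65% of all clusters, and the median difference was 0.03. The largest was that of Cdc45, which read 6.71, 7.41 and 7.40 on the WT arrays of set 1, 8.11, 8.12 and 8.22 on those of set 2 and 7.65, 8.16, 8.32 and 8.01 on the Mst1KO arrays. The Mst1KO arrays lay above the WT arrays of set 1 and among those of set 2, a difference of 0.61 ± 0.26 (adjusted p = 0.49). Rfc3 read 8.21 to 8.73 (median 8.46) in WT and 7.99, 7.91, 8.05 and 7.92 in Mst1KO, without overlap, a difference of -0.43 ± 0.14 (adjusted p = 0.26). Rpa3 read 9.11 to 9.97 (median 9.66) in WT and 9.27, 8.47, 9.44 and 8.92 in Mst1KO, with overlap, a difference of -0.39 ± 0.19 (adjusted p = 0.56).

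Whether the Mst1 difference itself differed between stages was tested by the interaction term, the Mst1KO minus WT difference at S3 less that at S1_S2. For none of the 54 genes did it pass in limma (0.0901% of all clusters passed upward and 0.0675% downward). At an unadjusted p under 0.05, 27 genes were positive and 1 negative, against 9.49% of all clusters in either direction, and the median was 0.39, with 49 positive. The largest were Gins1 (1.501 ± 0.48, adjusted p = 0.30), Dtl (1.18 ± 0.31, adjusted p = 0.17) and Stil (1.06 ± 0.38, adjusted p = 0.37), and the smallest adjusted p was that of Uhrf1 (0.89 ± 0.19, adjusted p = 0.051). Uhrf1 passed when array weights, a trended and robust variance or only the brighter clusters were used. 

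The stage difference and the Mst1 difference at S3 share WT S3 arrays, so they were also computed from separate arrays: the stage difference from the WT arrays of set 2, and the Mst1 difference from set 1. Of the 49 genes lower at S3 in set 2, 44 had a positive Mst1 difference in set 1, against 4628 of 10636 among all clusters lower at S3. Across the 54 genes the 2 differences had a Pearson correlation of -0.66 and a Spearman correlation of -0.71, against -0.17 and -0.10 across all 22206 clusters. These are correlations across genes, which are not independent replicates and share their arrays within each difference, and are given as a description.

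**Figure D5:**
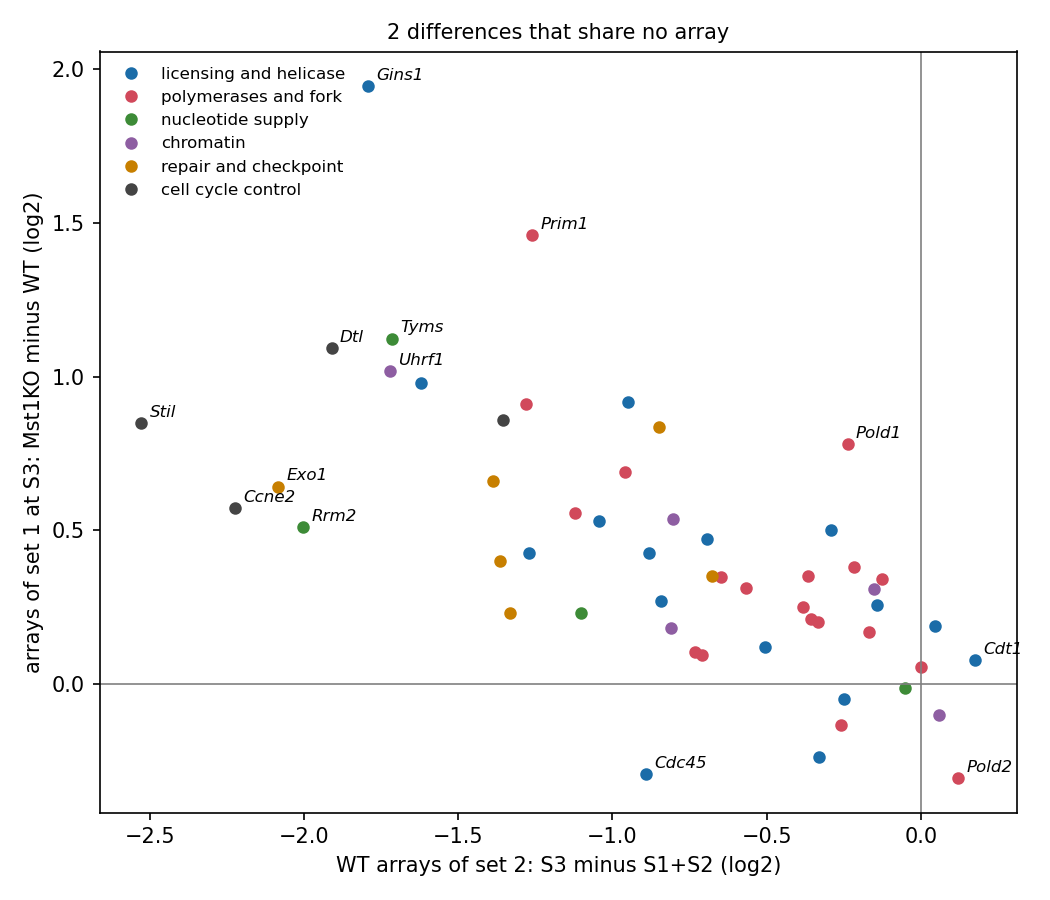
WT S3 minus S1_S2 in set 2 (horizontal axis, log2) against Mst1KO minus WT at S3 in set 1 (vertical axis, log2) for the 54 genes (points, coloured by function, some of them named). The differences share no array; genes further to the left tend to lie higher, Gins1 and Prim1 lie highest, and Cdc45 is an exception to the left of zero on the horizontal and below it on the vertical axis.

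In cells lacking both kinases at S1_S2 no replication gene passed against WT in limma (where 0.554% and 0.369% of all clusters were higher and lower), 3 had an unadjusted p under 0.05, as did 10.6% of all clusters, and the median difference was -0.01. Prim1 read 8.43 to 9.98 (median 9.31) on the WT arrays and 8.74 and 9.17 on the dKOMst arrays, below the WT arrays of their own set (9.98, 9.42 and 9.19), a difference of -0.73 ± 0.27 (adjusted p = 0.26). Ccne2 read 9.13 to 9.66 (median 9.42) in WT and 8.86 and 8.97 in dKOMst, without overlap (-0.54 ± 0.21, adjusted p = 0.32). Orc1 read 6.94 to 7.70 (median 7.39) in WT and 7.96 and 7.82 in dKOMst, also without overlap (0.47 ± 0.24, adjusted p = 0.51). Against the WT arrays of set 2, 10 of the 54 genes lay wholly above and 6 wholly below. Among all 22206 clusters 3477 and 2915 did so, and lack of overlap was thus common. With 2 dKOMst arrays the precision was low. Of cell type markers, 2 of 5 for NK cells and 1 of 9 for macrophages and dendritic cells were higher in dKOMst (limma). The summed NK cell level was 709 to 817 in dKOMst and 298 to 429 in WT. Of 10 iNKT markers 1 was lower, and no double-positive, B cell, gamma-delta or erythroid marker passed. The part of these markers in the replication gene differences at S1_S2 was not tested.

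Against Mst1KO at S1_S2 the dKOMst arrays likewise had 0 genes past the threshold in limma (where 0.117% and 0.054% of all clusters were higher and lower), and 2 had an unadjusted p under 0.05, as did 8.5% of all clusters. These genotypes lie in different sets and are linked only through the WT arrays. Prim1, at 9.09, 8.88, 9.39 and 9.03 in Mst1KO, had the largest difference, -1.10 ± 0.32 (adjusted p = 0.20), although the raw values overlapped. Rad51ap1 differed by -0.69 ± 0.51 (limma adjusted p = 0.77), reading 6.13 and 6.30 in dKOMst. Those values lay near the negative control medians of the 2 arrays, 6.46 and 6.24, so the difference is less exact than its error. Ccne2 differed by -0.62 ± 0.26 (adjusted p = 0.48), its dKOMst arrays lying below all 4 Mst1KO arrays.

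The single dKOMst S3 array was set against the 3 WT S3 arrays of its set, with no test. Of the 54 genes 10 were higher by at least 0.5 on the log2 scale and 0 lower, where 2.77% and 3.64% of all clusters were, with a median difference of 0.10. Stil read 7.90 against 6.31 ± 0.27 (SD, n = 3), a difference of 1.60, and Gins1 7.33 against 6.30 ± 0.77, a difference of 1.02. Ccne1 (0.81), Uhrf1 (0.69), Prim1 (0.69), Dtl (0.68), Cdc6 (0.59), Chek1 (0.58) and Tyms (0.55) followed. The tenth, Clspn, was below the controls on all 4 arrays, and no difference is given for it. The array lay above all 3 WT arrays for 20 genes and below them for 6, where 26.6% of all clusters lay above and 26% below. Within set 1 alone, which shares no array with this comparison, 15 genes had been higher in Mst1KO S3 cells. Of those 15, 7 were also among the 10 here. The same overlap over all clusters was not computed, and the list here rests on 1 dKOMst array. The overlap is therefore given as a description.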

How the data were processed

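Thymic iNKT cells were measured on 25 Clariom S arrays. The authors deposited log2 expression values made by RMA (background correction, quantile normalization and probe summary) in Affymetrix Expression Console 1.1, per the submitters' processing notes. Intensities before RMA were not used here, so precision is limited by the number of arrays. Of 28846 rows, 6640 controls were set aside and 22206 clusters tested, 19572 of them with 1 gene symbol and 2634 with none. Values ran from 3.04 to 13.7 and array medians from 7.28 to 7.39.

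Group means and a term for the title number set entered 1 limma model (version 3.58.1, under R 4.3.3, moderated by eBayes, 18 residual degrees of freedom), with Benjamini-Hochberg adjustment over all clusters and calls at an adjusted p under 0.05. Each adjusted p in the text is from this fit. The scripts were tested on simulated data. A group whose arrays all lay below the median of the negative controls was given a bound. Any member could be named; values on each array are given for the 3 largest differences in each tested comparison and the largest in each class for Mst1KO against WT at S3. The members and gene lists were chosen with earlier results of these data known. Alternatives changed the set term, normalization, variance model, clusters, arrays and fold minimum.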

Additional observations from a re-analysis of the deposited data

Results flagged for a closer look

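Each gene, and the mean over the 54 genes, was examined in each group of 4 to 7 arrays. In 13 of these 220 combinations 1 array stood apart from the rest by Dixon's criterion, where chance gives about 1 in 20. In WT S1_S2 cells, replicate 1 was low for Rfc2 (9.78, next 10.07) and for Chek1 (8.05, next 9.05). In Mst1KO S1_S2 cells, replicate 4 was low for Mcm4 (9.48, next 9.80) and Mcm5 (10.09, next 10.59). In WT S3 cells the lowest array stood apart for 6 genes: replicate 3 for Gmnn (5.89, next 6.53), Mcm6 (9.29, next 10.27) and Uhrf1 (8.08, next 8.77), replicate 2 for Rfc5 (7.22, next 8.0002) and Tyms (6.79, next 8.14), and replicate 4 for Rpa3 (8.75, next 9.35). In Mst1KO S3 cells the highest array stood apart for Pola1 (9.75 in replicate 1, next 9.47), Pcna (12.06 in replicate 2, next 11.85) and Exo1 (6.33 in replicate 4, next 5.51, all below the negative controls). The calls of Tyms, Uhrf1, Pola1 and Pcna in Mst1KO S3 cells held without any 1 array.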

How the results depend on the processing

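The count of genes called changed most with a minimum change of 1.5-fold, which left 20 between the WT stages, 2 between the Mst1KO stages (Ccne2 and Rrm2) and 0 for Mst1KO against WT at S3. For that last comparison 22 calls became 10 without the set term, 12 with the set as a random block, 10 with only the arrays of the groups compared and 11 with only arrays that hold Y-linked signal, a choice that left 14 between the Mst1KO stages. These counts are of the replication genes alone, without the share of all clusters under each setting. The interaction gained 1 call, Uhrf1, with brighter clusters alone, with array weights and with a trended and robust variance, and 0 to 1 when single arrays were left out. The median difference of dKOMst and Mst1KO, -0.06 in the report, was 0.23 without the set term and 0.16 with the random block, and ranged from -0.113 to 0.0727 when single arrays were left out. With both sets together 7 genes did not overlap between Mst1KO and WT at S3 (1.46% of all clusters higher, 1.07% lower). For the dKOMst S3 array 2 genes passed a difference of 1, and 0 passed in limma with the spread of the other groups. No paired analysis was possible because the labels share no number between arrays and do not say which came from 1 animal; the replicate numbers were given in accession order. Averaging all clusters of a symbol changed nothing, since no member had more than 1.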
